A study of Homo sapiens with 12 samples.

Results

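Kinesins are motor proteins that burn ATP to walk along microtubules. The genes described here are the 43 of 58735 listed genes (19951 of them protein coding) that are protein coding and whose symbol is KIF or KIFC followed by a digit. They were sorted by known function into 15 mitotic motors, 15 transport motors and 13 other genes, and 34 of the 43 (13 mitotic, 14 transport, 7 other) reached the mean of 1 FPKM (fragments scaled to gene length and library depth) that was set for testing. Another 7 genes with a kinesin symbol are not protein coding and were left out. The name does not hold the family exactly. KIF1BP passes the rule but encodes a kinesin-binding protein without a motor, and CENPE is a mitotic kinesin under another name, so it stands here among the partner genes.

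The RNA came from TFK1, an established human line of cholangiocarcinoma, a cancer of the bile duct, with a genotype labelled WT and grown in medium with serum. There were 4 groups of 3 libraries labelled as biological replicates: untreated control, radiation alone at 6 Gy, nab-paclitaxel alone at 1.62 ng/ml, and the combination of that dose of each. All RNA was taken 24 h after treatment. The labels do not say whether replicates were separate cultures, so p-values measure the spread between these libraries.

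The mitotic kinesins build the spindle, move and hold chromosomes, shorten microtubule ends and help cut the dividing cell apart, and many of them are transcribed mainly as a cell passes through G2 and mitosis. The transport kinesins carry vesicles, mitochondria and other cargo through cells in every phase, and several are best known from neurons. Paclitaxel, which nab-paclitaxel delivers bound to albumin, binds tubulin and stabilises the microtubules on which both classes walk. Ionising radiation breaks DNA and activates the checkpoints that hold cells before mitosis.

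Libraries held 14840283 to 17992242 fragments on genes. Among biliary epithelial markers, KRT19, KRT8, KRT18, EPCAM, SOX9 and CDH1 reached 1 FPKM, while KRT7 (0.533 FPKM) did not. KRT19 moved with treatment, from 234 ± 30.5 FPKM in controls to 391 ± 23.6 with radiation, 450.4 ± 36.5 with nab-paclitaxel and 599 ± 76.3 with both. None of 6 macrophage and 1 of 6 fibroblast markers (COL1A1, 5.70 FPKM) reached it. Of 5 neuronal markers 3 did, SYT1 at 11.4, MAP2 at 4.01 and TUBB3 at 1.5 FPKM. Replicate 2 of the control, replicate 1 of nab-paclitaxel and replicate 2 of the combination were picked as standing apart from their groups. No cutoff is given for that choice. KIF18A, for example, lay 0.42, 0.61 and 0.25 above its group mean on the log2 scale in these 3 libraries. It also lay at -0.35, -0.44 and -0.21 from that mean in control 3, nab-paclitaxel 2 and combination 3, so this gene alone does not set them apart. In the combination, KIF5B lay at 0.27 from its group mean in replicate 2 and at -0.29 in replicate 3. Total FPKM was 359492 in combination 2 and 359528 in combination 3, so these values do not single out combination 2. Values and some counts are also given without the 3 picked libraries, called below the libraries that stood apart. Since they were chosen for deviating, leaving them out narrows the spread by construction, and the 25 calls gained that way are given as values only.

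In untreated cells the transport class held the most kinesin RNA. Summed FPKM over the 15 transport genes was 162 ± 8.88 (SD, n = 3), against 85.1 ± 6.40 over the 15 mitotic genes and 32.2 ± 0.790 over the other 13. KIF5B, the ubiquitous heavy chain of conventional kinesin (kinesin-1), led with 63.2 ± 12.7 FPKM, ahead of KIF3B, a subunit of the heterotrimeric kinesin-2 motor (18.2 ± 0.728), and KIF1C, a kinesin-3 of vesicle traffic (16.8 ± 2.98), whose ranges overlapped each other. The mitotic genes with the highest level were the microtubule depolymerases KIF2A (11.4 ± 1.92) and KIF2C (10.5 ± 0.185), followed by KIFC1 (9.0 ± 1.24) and KIF23 (7.95 ± 1.56). The lowest tested mitotic member was KIF15 at 2.54 ± 0.338 FPKM.

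Of the 9 members that were not tested, KIF24 lay just under the limit, at a mean of 0.975 FPKM, and KIF9 just above it at 1.07. KIF2B was listed at 0 in all 12 libraries, and KIF4B, a near-identical copy of KIF4A, had 0 to 9 fragments a library, so its few reads could belong to either gene. KIF1A, the synaptic vesicle motor of neurons, had 3 to 24 fragments. KIF7, KIF26B, KIF6, KIF19 and KIF25 had means of 0.302, 0.287, 0.0335, 0.0272 and 0.00862 FPKM.

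Promoters were read from the RefSeq table (GRCh38.p14) as the 300 bases from 250 before to 50 after the gene's start. That table held 34 of the 43 members, and lacked KIF1BP, KIF21B, KIF27, KIF26B, KIF19, KIFC2, KIFC3, KIF13B and KIF5A. Genes of G2 and mitosis often carry a hexamer called the cell cycle genes homology region, searched here as TTTGAA and TTCGAA, a short distance downstream of a CCAAT box, the binding letters of the factor NF-Y. On either strand, the hexamer was found in 11 of 15 mitotic promoters (73.3%), 1 of 11 transport promoters (9.09%), 1 of 8 others and 16.4% of all 35116 promoters of the table. CCAAT was found in 11 of 15 mitotic promoters, 3 of 11 transport promoters (27.3%), 3 of 8 others and 34.6% of all, and both occurred in 10 of 15 mitotic promoters (66.7%) against 6.38% of all. E2F letters (TTCCCGC or TTTGGCGC) were found in 1 of 15 mitotic promoters, 2 of 11 transport promoters and 7.13% of all. No match of one motif overlapped a match of another in the members, and a match is a description of letters, not of a bound site.

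The 120 bases before the start are shown for 4 mitotic members that carry both motifs, for KIF20A and KIF2C, which are the mitotic members that rose with nab-paclitaxel alone, and for KIF5B as the most abundant transport member, a choice made after their values were seen. Sequences run 5′ to 3′ on the gene's strand in lower case, and capitals mark the hexamer (TTTGAA or TTCGAA, or TTCAAA on the other strand) and the CCAAT box (ATTGG on the other strand).
KIF11 (chr10:92593010-92593129, plus strand): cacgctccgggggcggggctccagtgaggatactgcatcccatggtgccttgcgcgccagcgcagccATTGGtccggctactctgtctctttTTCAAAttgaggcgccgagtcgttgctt
KIF23 (chr15:69414229-69414348, plus strand): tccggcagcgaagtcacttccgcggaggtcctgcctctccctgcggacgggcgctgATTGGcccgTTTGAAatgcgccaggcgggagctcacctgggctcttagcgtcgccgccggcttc
KIF4A (chrX:70289984-70290103, plus strand): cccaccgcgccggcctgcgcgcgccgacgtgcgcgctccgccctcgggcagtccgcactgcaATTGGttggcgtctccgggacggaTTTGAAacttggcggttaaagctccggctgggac
KIF22 (chr16:29790631-29790750, plus strand): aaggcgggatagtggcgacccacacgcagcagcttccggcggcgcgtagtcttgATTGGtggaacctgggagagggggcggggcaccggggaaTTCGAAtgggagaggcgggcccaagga
KIF20A (chr5:138178992-138179111, plus strand): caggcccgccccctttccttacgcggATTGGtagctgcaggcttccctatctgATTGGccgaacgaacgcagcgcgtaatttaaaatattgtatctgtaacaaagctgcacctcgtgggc
KIF2C (chr1:44739717-44739836, plus strand): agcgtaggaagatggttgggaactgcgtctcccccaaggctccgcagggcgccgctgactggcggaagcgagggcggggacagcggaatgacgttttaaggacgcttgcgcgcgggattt
KIF5B (chr10:32056426-32056545, minus strand): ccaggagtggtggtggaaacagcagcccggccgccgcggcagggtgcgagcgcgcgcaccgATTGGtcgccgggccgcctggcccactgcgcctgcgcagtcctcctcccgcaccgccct
In KIF11, KIF23, KIF4A and KIF22 the CCAAT box came first and the hexamer followed it nearer the start. KIF20A carried 2 CCAAT boxes and neither TTTGAA nor TTCGAA in the whole 300 bases, and other spellings of the hexamer were not searched. The RefSeq start of KIF20A lies 393 bases from the gene start of the annotation. The windows of KIF2C, KIF2A and KIF2B held none of the searched letters. The hexamer of KIF5B lies farther upstream than the printed stretch, from 140 to 135 bases before the start. Starts far from the annotated gene start (72625 bases for KIF5C and 17897 for KIF24) make those windows uncertain.

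**Figure D1:**
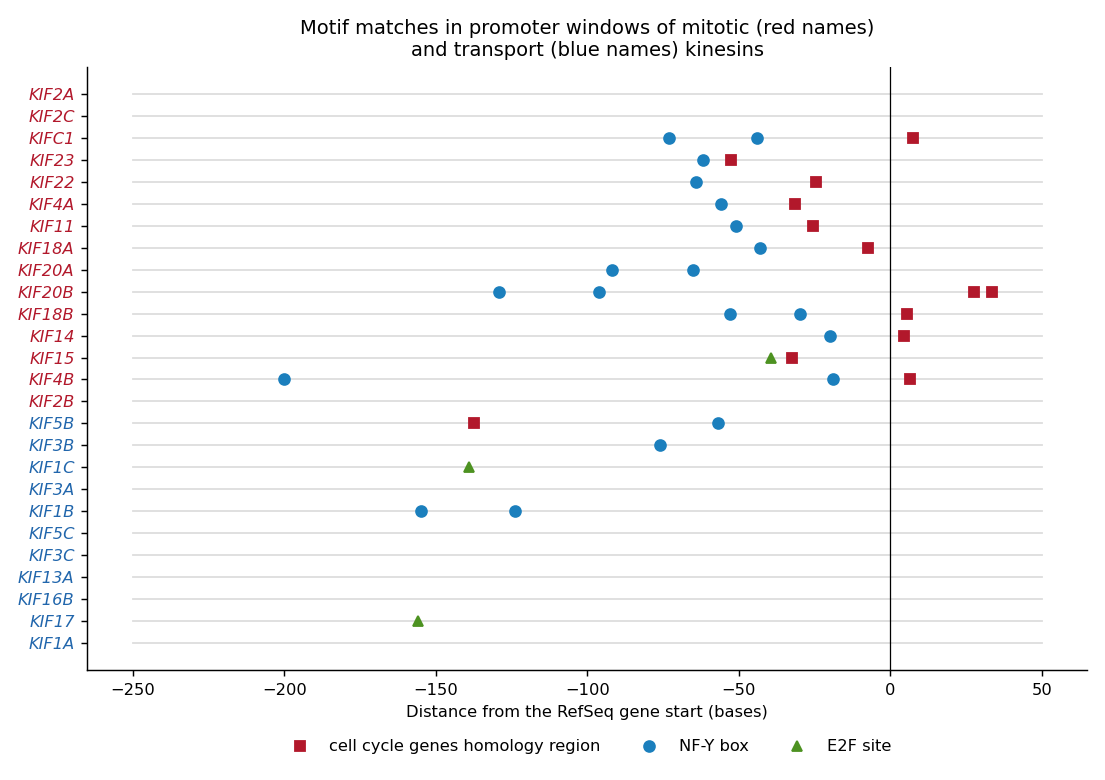
Positions of the cell cycle hexamer, the CCAAT box (named NF-Y box in the legend) and E2F letters in the promoters of the 15 mitotic and 11 transport members with a RefSeq entry, by distance in bases from the gene's start. The mitotic members gather most of the marks (hexamer in 11 of 15 promoters, against 1 of 11 for transport members).

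The first comparison asked what 6 Gy of radiation alone did to the motors. Mitotic kinesins fell together. With limma on log2(FPKM + 1), 11 of 13 tested mitotic members fell and none rose at an adjusted p under 0.05, where 3.45% of all 13609 tested genes fell and 2.48% rose. The median log2 fold change of the 13 was -0.76, against -0.02 over all tested genes, and all 13 values were negative (-0.85 to -0.11). Summed mitotic FPKM was 49.8 ± 0.481 (SD, n = 3) after radiation, against 85.1 ± 6.40 in controls, while the transport sum was 159.5 ± 1.58 against 162 ± 8.88. The mitotic class thus held 21.1% of all kinesin FPKM after radiation and 30.5% in controls.

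**Figure D2:**
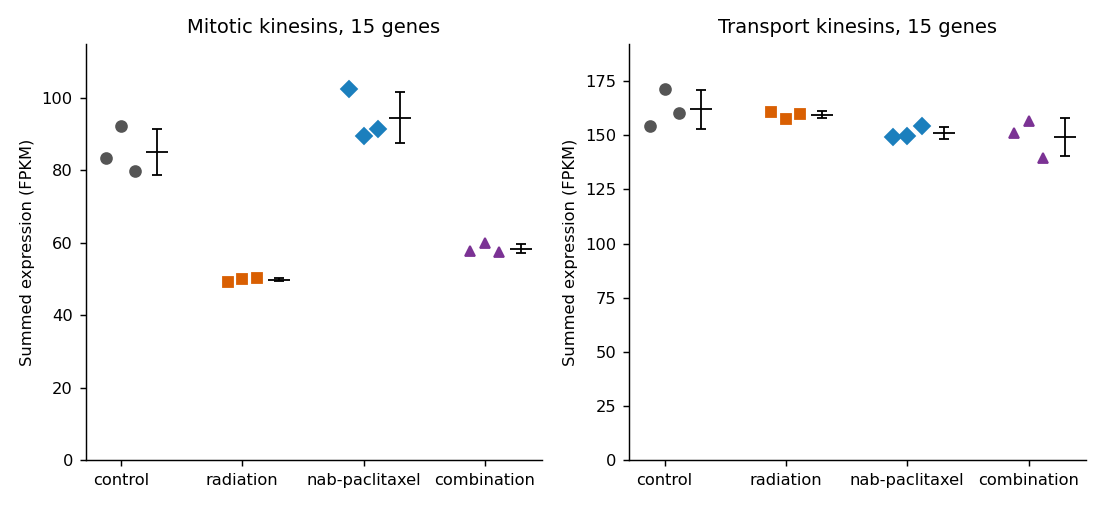
Summed FPKM of the mitotic and of the transport kinesins in each library (points), with the mean and SD beside them, for control, radiation, nab-paclitaxel and the combination. The mitotic sum is 85.1 in control, 49.8 with radiation, 94.6 with nab-paclitaxel and 58.4 with both, while the transport sum stays between 149 and 162 in the group means.

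Members that shape the spindle showed the pattern in each library. Gene positions are those of the deposited table, on hg38. KIF2C, the centromeric depolymerase that corrects faulty chromosome attachments (ENSG00000142945, chr1:44739818-44767767, plus strand), stood at 10.6, 10.6 and 10.3 FPKM in the controls and at 5.22, 5.98 and 4.95 after radiation. All radiation libraries lay below all controls, as they did for 16% of all tested genes. The log2 fold change of KIF2C was -0.85 ± 0.09 (SE, adjusted p = 0.000654). KIFC1, the minus-end motor that focuses spindle poles and clusters extra centrosomes (ENSG00000237649, chr6:33391536-33409924, plus strand), was at 10.1, 7.63 and 9.30 FPKM in controls and 4.96, 4.78 and 4.35 after radiation. The groups did not overlap, although control replicate 2 was the lowest of its group, and the difference was -0.80 ± 0.12 (SE, adjusted p = 0.00319). KIF11, known as Eg5, slides antiparallel microtubules apart to make the spindle bipolar (ENSG00000138160, chr10:92593286-92655395, plus strand). It measured 6.32, 8.07 and 5.74 FPKM in controls and 3.59, 3.31 and 3.65 after radiation, with control replicate 2 the highest library and no overlap (-0.76 ± 0.12 SE, adjusted p = 0.00584). KIF15, which backs up KIF11 in keeping the poles apart (ENSG00000163808, chr3:44761717-44873376, plus strand), was at 2.48, 2.91 and 2.24 FPKM in controls and 0.841, 0.973 and 1.13 after radiation, again without overlap (-0.84 ± 0.13 SE, adjusted p = 0.00515). KIF15 has a low level, and with a pseudocount of 0.1 its value was -1.29, the largest fall of the class where KIF2C leads with a pseudocount of 1. KIF18B, which works with KIF2C to shorten astral microtubules (ENSG00000186185, chr17:44924709-44947711, minus strand), was at 4.56, 3.22 and 4.68 FPKM in controls and 1.87, 1.89 and 1.84 after radiation. All 3 radiation libraries lay close together below the lowest control, replicate 2 (-0.83 ± 0.16 SE, adjusted p = 0.013).

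Motors of chromosome arms and of cytokinesis fell as well. KIF4A, a chromokinesin that also sizes the overlap zone of the central spindle with PRC1 (ENSG00000090889, chrX:70290090-70420832, plus strand), was at 6.37, 7.69 and 6.61 FPKM in controls and 3.44, 3.68 and 3.44 after radiation (-0.80 ± 0.09 SE, adjusted p = 0.000676). KIF22, the chromokinesin that pushes chromosome arms toward the equator (ENSG00000079616, chr16:29790719-29805385, plus strand), was at 7.98, 6.19 and 7.12 FPKM in controls and 3.42, 4.15 and 3.75 after radiation (-0.76 ± 0.13 SE, adjusted p = 0.00638). For both genes the radiation libraries all lay below the controls, as for 16% of all tested genes. Of the exon bases of KIF22, 13% lie in exons of an antisense gene (AC009133.4), and of those of KIFC1 12.7% in a pseudogene on the other strand (RPL12P1), so some of their reads are uncertain if strand was not used. KIF20A, which brings the chromosomal passenger complex to the spindle midzone in anaphase (ENSG00000112984, chr5:138178719-138187715, plus strand), was at 4.63, 3.65 and 3.71 FPKM in controls and 2.25, 2.13 and 2.48 after radiation. Its groups did not overlap, and the difference was -0.60 ± 0.11 (SE, adjusted p = 0.00725). KIF23, the motor of centralspindlin, fell from 7.95 ± 1.56 to 4.89 ± 0.390 FPKM (-0.59 ± 0.13 SE, adjusted p = 0.0248), KIF14, which acts with citron kinase in cytokinesis, from 4.27 ± 0.600 to 2.22 ± 0.243 (-0.71 ± 0.15 SE, adjusted p = 0.0186), and KIF20B, another motor of cytokinesis, from 4.65 ± 1.17 to 2.74 ± 0.0551 (-0.57 ± 0.15 SE, adjusted p = 0.0405).

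The mitotic members that did not pass the test were KIF18A, which dampens chromosome movements at the metaphase plate, at -0.59 ± 0.25 (SE, adjusted p = 0.217), and KIF2A, at -0.11 ± 0.12 (SE, adjusted p = 0.677). KIF18A had controls of 5.53, 8.15 and 4.38 FPKM, the widest relative spread of the tested mitotic members. Its radiation libraries (3.35, 3.46 and 3.80) all lay lower, as for 16% of all tested genes. KIF2A, which also acts in interphase and in neurons, overlapped between the groups. When the 3 libraries that stood apart were left out, the difference of KIF18A was -0.39 ± 0.12 (SE), a smaller fold with an SE narrowed by that choice. Leaving out any 1 of the radiation libraries left 7 calls. Calls that missed 0.05 without 1 library were KIF20B (8 libraries, among them all 3 of radiation, adjusted p of 0.0572 to 0.131), KIF18B (control 1 or any radiation library, 0.0523 to 0.0536), and KIF14 and KIF23 (control 2 or any radiation library, 0.0526 to 0.113).

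**Figure D3:**
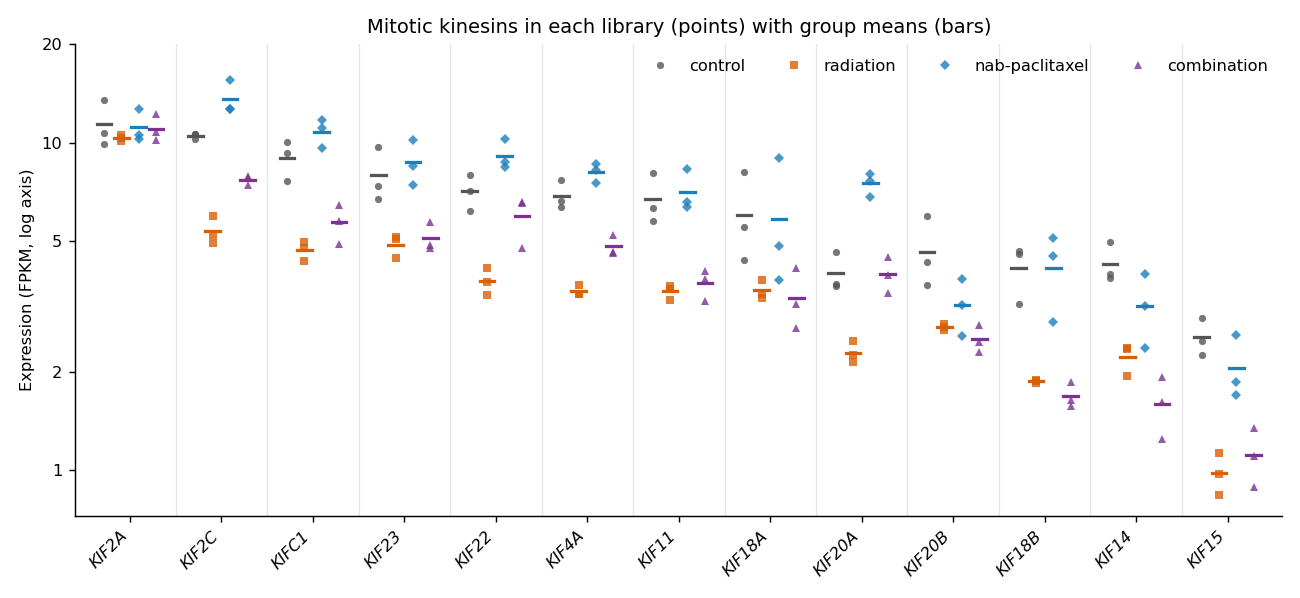
FPKM of the tested mitotic kinesins, on a log axis, in each library by group (points) with the group means (short bars). Radiation and the combination lie low for most members, and KIF2A overlaps in all 4 groups. KIF20A and KIF2C have their highest group mean with nab-paclitaxel (7.50 and 13.6 FPKM). So do KIFC1, KIF22, KIF4A, KIF23, KIF11 and, barely, KIF18B, which were not called for the drug against control.

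Genes that mark the cell cycle fell alongside. Of 15 genes of G2 and M phase that are no kinesins, 11 fell and none rose after radiation (median -0.70), and of 15 S phase genes 11 fell and none rose (median -0.57). Their summed FPKM went from 190 ± 6.09 to 111 ± 1.49 for G2 and M phase and from 288 ± 4.64 to 202 ± 1.56 for S phase. CDC20, which switches on the complex that starts anaphase, changed by -0.73 ± 0.08 (SE, adjusted p = 0.000566), UBE2C, its ubiquitin-conjugating enzyme, by -1.09 ± 0.11 (SE, adjusted p = 0.000489), and CCNB2, a mitotic cyclin, by -0.89 ± 0.10 (SE, adjusted p = 0.000819). MCM3, CDT1 and MCM4, which license DNA replication origins, changed by -0.79, -1.03 and -0.57 (adjusted p = 0.000434, 0.000564 and 0.00111 with limma). In bulk RNA, fewer cells in a cell cycle phase and less RNA per cell cannot be told apart, and the part of cell cycle phase in the kinesin differences was not tested.

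Of 21 tested partners that act with these motors in mitosis, 11 fell and none rose after radiation (median -0.54). The other listed partner, PRC1, had a mean of 0.0813 FPKM over the 12 libraries and was not tested. BIRC5, the survivin subunit of the passenger complex that KIF20A carries, went from 14.4 ± 0.215 to 7.09 ± 0.810 FPKM (-0.93 ± 0.09 SE, adjusted p = 0.000489). TPX2, which recruits KIF11 and KIF15 to spindle microtubules, went from 30.5 ± 1.95 to 18.1 ± 0.191 (-0.72 ± 0.07 SE, adjusted p = 0.000541). PLK1, the kinase that docks on KIF20A, went from 6.20 ± 0.729 to 4.15 ± 0.0208 (-0.48 ± 0.09 SE, adjusted p = 0.0101).

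Among transport kinesins a single gene passed after radiation. Of 14 tested members 1 rose and none fell, and their median was 0.01 against -0.02 over all genes. Over all tested genes 2.48% rose and 3.45% fell, so a count of 1 says nothing particular about the class. The member that rose was KIF5C, a kinesin-1 heavy chain enriched in neurons (ENSG00000168280, chr2:148875250-149026759, plus strand), which was at 6.38, 7.50 and 6.58 FPKM in controls and 9.42, 8.89 and 8.64 after radiation. All radiation libraries lay above all controls, as for 12.4% of all tested genes, with a log2 fold change of 0.35 ± 0.08 (SE, adjusted p = 0.0196). Its call was lost without control 1, control 3 or any of the radiation libraries (adjusted p of 0.0593 to 0.0979). Neuronal markers summed to 21.6 ± 3.13 FPKM in controls and 17.2 ± 0.736 after radiation (18.3 ± 0.876 with nab-paclitaxel and 13.5 ± 1.36 with both), with RBFOX3, a defining marker of neurons, at 0.0705 and 0.131. Their part in the result was not tested.

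KIF17, a homodimeric kinesin-2 of dendrites and cilia (ENSG00000117245, chr1:20664014-20718017, minus strand), was at 1.04, 1.08 and 1.17 FPKM in controls and 1.54, 1.70 and 1.74 after radiation, without overlap, but missed the threshold (0.34 ± 0.09 SE, adjusted p = 0.0555). KIFC2, a minus-end motor known from neurons (ENSG00000167702, chr8:144466043-144474202, plus strand), was at 11.7, 9.49 and 12.3 FPKM in controls and 12.9, 13.7 and 12.6 after radiation, also without overlap (0.22 ± 0.13 SE, adjusted p = 0.398). Such a separation upward held for 12.4% of all tested genes. KIF5B (ENSG00000170759, chr10:32009010-32056431, minus strand) was at 55.4, 77.8 and 56.4 FPKM in controls and 59.0, 53.2 and 58.4 after radiation. Here the groups overlapped, with control replicate 2 the highest library (-0.13 ± 0.17 SE, adjusted p = 0.751). Leaving out the 3 libraries that stood apart, the differences were 0.19 for KIF3A, 0.34 for KIF17 and -0.22 for KIF13B, given without a call. KIF17 passed without nab-paclitaxel 1 alone (adjusted p = 0.0414).

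**Figure D4:**
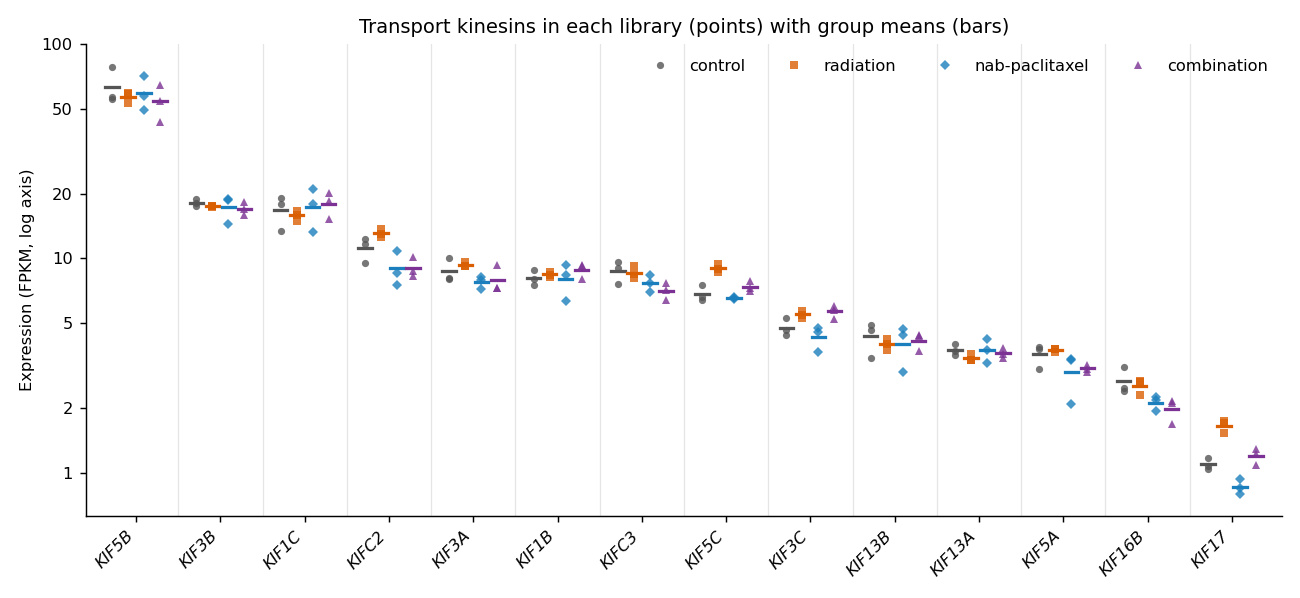
FPKM of the tested transport kinesins, on a log axis, in each library by group (points) with the group means (short bars). Groups overlap for most members. KIF5C, KIF17 and KIFC2 have their highest group mean after radiation (8.98, 1.66 and 13.1 FPKM), as do KIF3A and KIF5A (9.34 and 3.74 FPKM).

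Nab-paclitaxel alone, compared with control, raised KIF20A and KIF2C. They were 2 of the 13 tested mitotic members, and none fell, where 5.41% of all tested genes rose and 3.41% fell. The median was 0.07, against 0.04 over all genes, and single values ran from -0.42 to 0.77. KIF20A was at 6.82, 7.66 and 8.03 FPKM, all above the control libraries, with a log2 fold change of 0.77 ± 0.11 (SE, adjusted p = 0.00326). KIF2C was at 15.5, 12.6 and 12.7 FPKM, also all above control, with 0.34 ± 0.09 (SE, adjusted p = 0.0426). Such a separation upward held for 15.5% of all tested genes. CENPE, the mitotic kinesin kept among the partners and named here after its values were seen, went from 3.15 ± 0.621 to 1.84 ± 0.507 FPKM and fell (-0.55 ± 0.15 SE, adjusted p = 0.0443). The KIF20A call stood without any 1 library. The KIF2C call did not: adjusted p was 0.0518 to 0.108 without any 1 of the 12 libraries except nab-paclitaxel replicate 3, and 1 member then passed.

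KIF22 (8.72, 10.2 and 8.41 FPKM), KIFC1 (9.65, 11.7 and 11.1) and KIF4A (8.62, 7.52 and 8.22) had positive differences of 0.32, 0.24 and 0.21 that missed the threshold (adjusted p = 0.13, 0.209 and 0.143 with limma). KIF11 was at 8.32, 6.59 and 6.35 FPKM, overlapping the controls (0.07 ± 0.12 SE, adjusted p = 0.757). KIF18B at 2.82, 5.13 and 4.50 FPKM and KIF15 at 2.58, 1.70 and 1.86 FPKM overlapped them too (-0.02 ± 0.16 SE, adjusted p = 0.964, and -0.22 ± 0.13 SE, adjusted p = 0.313). In nab-paclitaxel replicate 1, KIF18B was the lowest and KIF11 and KIF15 were the highest of the group. The cytokinesis motors KIF20B and KIF14 had negative values of -0.42 and -0.35 (adjusted p = 0.0941 and 0.161). Without the 3 libraries that stood apart, KIF4A had a difference of 0.24 and KIF20B of -0.36, given without a call.

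Of the 15 G2 and M phase genes 7 rose and 1 fell with nab-paclitaxel (median 0.26), with a summed level of 248 ± 25.6 FPKM. Of 15 S phase genes 3 rose and none fell (median 0.21), with a sum of 356 ± 30.01 FPKM, and their part in the kinesin differences was not tested. Partners in mitosis counted 6 higher and 1 lower of 21 (median 0.31), CENPE being the lower one, with BIRC5 at 0.44 ± 0.09 (SE, adjusted p = 0.0186), TPX2 at 0.38 ± 0.07 (SE, adjusted p = 0.0133) and PLK1 at 0.46 ± 0.09 (SE, adjusted p = 0.0136).

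None of the 14 transport members passed with limma for nab-paclitaxel against control. At an unadjusted p under 0.05 there was 1 of 14, where 26.5% of all tested genes had one. With voom there was none. The median was -0.11, against 0.04 over all genes, and 13 of the 14 values were negative. KIF5C at 6.49, 6.51 and 6.64 FPKM and KIFC2 at 7.53, 10.9 and 8.57 FPKM overlapped the controls (-0.05 ± 0.08 SE, adjusted p = 0.73, and -0.29 ± 0.13 SE, adjusted p = 0.181). KIF17 at 0.853, 0.933 and 0.796 FPKM lay below all controls, with -0.17 ± 0.09 (SE, adjusted p = 0.27). KIF16B, a motor of early endosomes (ENSG00000089177, chr20:16272104-16573434, minus strand), was at 2.50, 3.11 and 2.41 FPKM in controls and 2.25, 1.95 and 2.18 with the drug, lower in all libraries but short of the threshold (-0.23 ± 0.11 SE, adjusted p = 0.194). Every drug library lay below every control for 10.6% of all tested genes. KIF5B was at 70.8, 49.5 and 57.1 FPKM and overlapped the controls (-0.09 ± 0.17 SE, adjusted p = 0.775).

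With both treatments, compared with control, mitotic kinesins again stood low. Of 13 tested members 9 fell and none rose, where 10.6% of all tested genes fell and 12.2% rose, and the median was -0.57 against 0.00 over all genes. The mitotic sum was 58.4 ± 1.30 FPKM (SD, n = 3). The largest falls were in KIF14 (1.59 ± 0.338 FPKM, -1.02 ± 0.15 SE, adjusted p = 0.000897) and in KIF18B, which was at 1.57, 1.64 and 1.86 FPKM, below every control (-0.93 ± 0.16 SE, adjusted p = 0.00254). KIF15 at 1.35, 1.11 and 0.891 FPKM and KIF11 at 3.84, 4.05 and 3.28 FPKM also lay below every control (-0.75 ± 0.13 SE, adjusted p = 0.0028, and -0.70 ± 0.12 SE, adjusted p = 0.00271), with KIF15 at -1.13 for a pseudocount of 0.1. Every combination library lay below every control for 17.8% of all tested genes. KIFC1 was at 5.76, 4.89 and 6.46 FPKM, with replicate 2 lowest (-0.57 ± 0.12 SE, adjusted p = 0.0054). KIF4A at 4.64, 5.23 and 4.61 FPKM and KIF2C at 7.79, 7.89 and 7.43 FPKM also fell (-0.43 ± 0.09 SE, adjusted p = 0.00476, and -0.40 ± 0.09 SE, adjusted p = 0.0091). KIF23 and KIF20B fell by 0.54 and 0.67 (adjusted p = 0.0147 and 0.00762).

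Of the 13, 4 members did not pass. KIF20A was at 3.94, 3.48 and 4.46 FPKM with both treatments, overlapping the controls (-0.01 ± 0.11 SE, adjusted p = 0.96). KIF22 was at 6.56, 4.76 and 6.61 FPKM, with replicate 2 the lowest of its group, and overlapped the controls (-0.22 ± 0.13 SE, adjusted p = 0.235). KIF2A overlapped the controls (-0.03 ± 0.12 SE, adjusted p = 0.879), and KIF18A lay below all of them without passing (-0.66 ± 0.25 SE, adjusted p = 0.0793). Without the 3 libraries that stood apart KIF18A had a difference of -0.58, given without a call. KIF18A passed without nab-paclitaxel 1 alone (adjusted p = 0.0214). KIF23 missed the threshold without combination 1 or 3 (adjusted p = 0.0526 and 0.0578).

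G2 and M phase genes counted 4 lower and none higher of 15 (median -0.13, sum 159 ± 2.74 FPKM), and S phase genes 12 lower and 1 higher of 15 (median -0.60, sum 254 ± 2.66 FPKM). Their part in the kinesin differences was not tested. Partners in mitosis counted 7 lower and none higher of 21 (median -0.25). CDC20 did not pass (0.12 ± 0.08 SE, adjusted p = 0.307), while BIRC5 (-0.52 ± 0.09 SE, adjusted p = 0.00277) and MCM3 (-0.83 ± 0.08 SE, adjusted p = 7.7e-05) fell.

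No transport member passed with limma for the combination against control, and voom called 1. The median was -0.07, against 0.00 over all genes. At an unadjusted p under 0.05 there were 2 of 14, where 36.5% of all tested genes had one. KIF16B was at 2.15, 2.12 and 1.69 FPKM, below every control, as for 17.8% of all tested genes (-0.30 ± 0.11 SE, adjusted p = 0.063). KIF3C, the alternative partner of KIF3A in kinesin-2 (ENSG00000084731, chr2:25926596-25982749, minus strand), was at 4.63, 4.38 and 5.28 FPKM in controls and 6.02, 5.20 and 5.77 with both treatments, with overlap (0.21 ± 0.10 SE, adjusted p = 0.144). KIF5B was at 54.2, 64.5 and 43.4 FPKM, KIF5C at 7.30, 7.83 and 7.05 and KIF17 at 1.23, 1.08 and 1.29, each overlapping the controls (-0.22, 0.10 and 0.07 on the log2 scale). Without the 3 libraries that stood apart, KIF3C had 0.21 and KIFC2, KIFC3 and KIF5A had -0.31, -0.30 and -0.23, given without a call. KIFC3, a minus-end motor of epithelial cells, passed without control 2 alone (-0.36, adjusted p = 0.0266).

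The combination was next set against each single treatment. Relative to radiation alone, 4 of 13 mitotic members were higher and none lower, where 4.81% of all tested genes were higher and 2.95% lower, and the median was 0.08 against 0.03 over all genes. KIF20A differed by 0.59 ± 0.11 (SE, adjusted p = 0.00925), KIF22 by 0.54 ± 0.13 (SE, adjusted p = 0.0295), KIF2C by 0.45 ± 0.09 (SE, adjusted p = 0.0161) and KIF4A by 0.37 ± 0.09 (SE, adjusted p = 0.0288). For these 4 genes every combination library lay above every radiation library, which held for 23.9% of all tested genes. KIF14 went the other way, at -0.32 ± 0.15 (SE, adjusted p = 0.218). G2 and M phase genes counted 8 higher and none lower of 15 (median 0.37), S phase genes 2 higher and none lower, and partners 4 higher and none lower of 21 (median 0.26). The part of these genes in the result was not tested.

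Leaving out 1 library ended several of these calls, while the differences stayed at 0.52 for KIF20A, 0.47 to 0.59 for KIF22, 0.40 to 0.47 for KIF2C and 0.32 to 0.39 for KIF4A in the fits that lost the call. The count was 2 without radiation 2, 1 without radiation 1, radiation 3 or combination 1, and 0 without combination 3. Adjusted p without 1 library reached 0.0536 for KIF20A (combination 3), 0.0581 to 0.0772 for KIF2C (combination 1 or 3, radiation 1 or 3), 0.0655 to 0.121 for KIF22 (any radiation library, combination 1 or 3) and 0.0699 to 0.111 for KIF4A (any library of either group). Once the 3 libraries that stood apart were dropped, KIFC1 had a difference of 0.32 and KIF14 of -0.41, given without a call.

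Among transport members 1 of 14 differed between the combination and radiation alone, and their median was -0.15 against 0.03 over all genes. Over all tested genes 4.81% were higher and 2.95% lower, so the count of 1 alone says nothing particular about the class. At an unadjusted p under 0.05 with limma there were 5 of 14, all of them lower. Over all genes 1377 of 13609 were lower at that level. KIFC2 was at 10.2, 8.29 and 8.75 FPKM with both treatments, below all radiation libraries (-0.49 ± 0.13 SE, adjusted p = 0.044). That call was lost without any 1 library of either group, control 1, control 3 or nab-paclitaxel 3 (adjusted p of 0.0503 to 0.143), and 17.8% of the gene's exon bases lie in exons of FOXH1 on the other strand, so reads of the 2 genes may be mixed if strand was not used. KIF5C and KIF17 lay below all radiation libraries as well but missed the threshold (-0.25 ± 0.08 SE, adjusted p = 0.0668, and -0.27 ± 0.09 SE, adjusted p = 0.098). Such a separation downward held for 6 of the 15 transport members and for 16.5% of all tested genes. Without the 3 libraries that stood apart KIF1C had 0.27, KIF3A -0.32, KIF5C -0.29 and KIF5A -0.20, given without a call. KIF5C passed without control 2 alone or nab-paclitaxel 1 alone (adjusted p = 0.0333 and 0.0479).

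Relative to nab-paclitaxel alone, 9 of 13 mitotic members were lower with the combination and none higher, where 2.7% of all tested genes were lower and 1.21% higher. The median was -0.66, against -0.02 over all genes. KIF18B (-0.91 ± 0.16 SE, adjusted p = 0.0118), KIFC1 (-0.82 ± 0.12 SE, adjusted p = 0.00376), KIF20A (-0.78 ± 0.11 SE, adjusted p = 0.0028) and KIF11 (-0.77 ± 0.12 SE, adjusted p = 0.00717) were lower. KIF2C, KIF14, KIF23, KIF4A and KIF22 were lower too, at -0.74, -0.67, -0.66, -0.65 and -0.54 (adjusted p = 0.00164, 0.0322, 0.0217, 0.0026 and 0.0388 with limma). G2 and M phase genes counted 9 lower of 15 (median -0.50), S phase genes 13 lower of 15 (median -0.75) and partners 10 lower of 21 (median -0.55), with none higher in any of these lists. Their part in the result was not tested. The order of these folds depends on the pseudocount: with 0.1 in place of 1, KIF14 had -0.93, below KIFC1 (-0.91), KIF20A (-0.91) and KIF11 (-0.90).

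KIF22 missed the threshold without 10 of the 12 libraries taken 1 at a time, the exceptions being control 1 and control 2 (adjusted p of 0.0571 to 0.128). KIF14 missed it without radiation 1 or 3, nab-paclitaxel 1 or 3, or combination 1 or 3 (0.055 to 0.135), and KIF23 without nab-paclitaxel 1 or 3 or combination 1 or 3 (0.0551 to 0.0956). KIF15 passed without control 2 (-0.52, adjusted p = 0.0473). No transport member passed with limma or voom (median 0.04, against -0.02 over all genes). Of the 14, 2 had an unadjusted p under 0.05, where 17.6% of all tested genes did. KIF3C, at 3.65, 4.56 and 4.74 FPKM with the drug alone, lay above that range in every combination library (0.33 ± 0.10 SE, adjusted p = 0.0955). Such a separation upward held for 8.66% of all tested genes. Once the 3 libraries that stood apart were left out, the difference of KIF3C was 0.29, given without a call.

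The 2 single treatments can be compared with each other without the controls. Relative to radiation, nab-paclitaxel had 9 of 13 mitotic members higher and none lower, where 10.6% of all tested genes were higher and 5.58% lower, and the median was 0.82 against 0.05. KIF20A differed by 1.37 ± 0.11 (SE, adjusted p = 3.5e-05), KIF2C by 1.19 ± 0.09 (SE, adjusted p = 3.5e-05), KIF22 by 1.08 ± 0.13 (SE, adjusted p = 0.000525), KIFC1 by 1.05 ± 0.12 (SE, adjusted p = 0.000364) and KIF4A by 1.01 ± 0.09 (SE, adjusted p = 6.5e-05). KIF11, KIF18B, KIF23 and KIF15 were higher by 0.83, 0.82, 0.71 and 0.61 (adjusted p = 0.0019, 0.00806, 0.00612 and 0.0121). For all 9 the drug libraries lay above the radiation libraries, as they did for 26.7% of all tested genes. KIF14, KIF20B, KIF18A and KIF2A did not pass (0.36, 0.16, 0.53 and 0.09). With a pseudocount of 0.1 KIF15 was higher by 0.98. It missed the threshold without radiation 1 (adjusted p = 0.0549), and KIF14 passed without nab-paclitaxel 2 (0.50, adjusted p = 0.0467). G2 and M phase genes counted 14 higher of 15 (median 0.76), S phase genes 14 higher of 15 (median 0.82) and partners 19 higher of 21 (median 0.85), with none lower, and their part in the result was not tested.

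Of 14 tested transport members, 3 were lower with nab-paclitaxel than with radiation and none higher, where 5.58% of all tested genes were lower and 10.6% higher. The median of the 14 was -0.16, against 0.05 over all genes. At an unadjusted p under 0.05 with limma there were 4 of 14, all of them lower. Over all genes 1595 of 13609 were lower at that level. The 3 members called were KIF17 (-0.52 ± 0.09 SE, adjusted p = 0.0052), KIFC2 (-0.51 ± 0.13 SE, adjusted p = 0.0228) and KIF5C (-0.40 ± 0.08 SE, adjusted p = 0.00623). For each every drug library lay below every radiation library, as for 7 of the 15 transport members and 15.8% of all tested genes. KIF17 has a low level, and its value was -0.87 with a pseudocount of 0.1. KIF3C, at 5.27, 5.71 and 5.47 FPKM after radiation, was also lower in every drug library but missed the threshold (-0.29 ± 0.10 SE, adjusted p = 0.0643). KIF16B, at 2.66, 2.30 and 2.68 FPKM after radiation, did so too (-0.18 ± 0.11 SE, adjusted p = 0.265). KIFC2 missed the threshold without any 1 radiation library, nab-paclitaxel 1 or nab-paclitaxel 3 (adjusted p of 0.0569 to 0.0807). Without the 3 libraries that stood apart KIF3A had a difference of -0.27 and KIF1C of 0.28, given without a call.

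**Figure D5:**
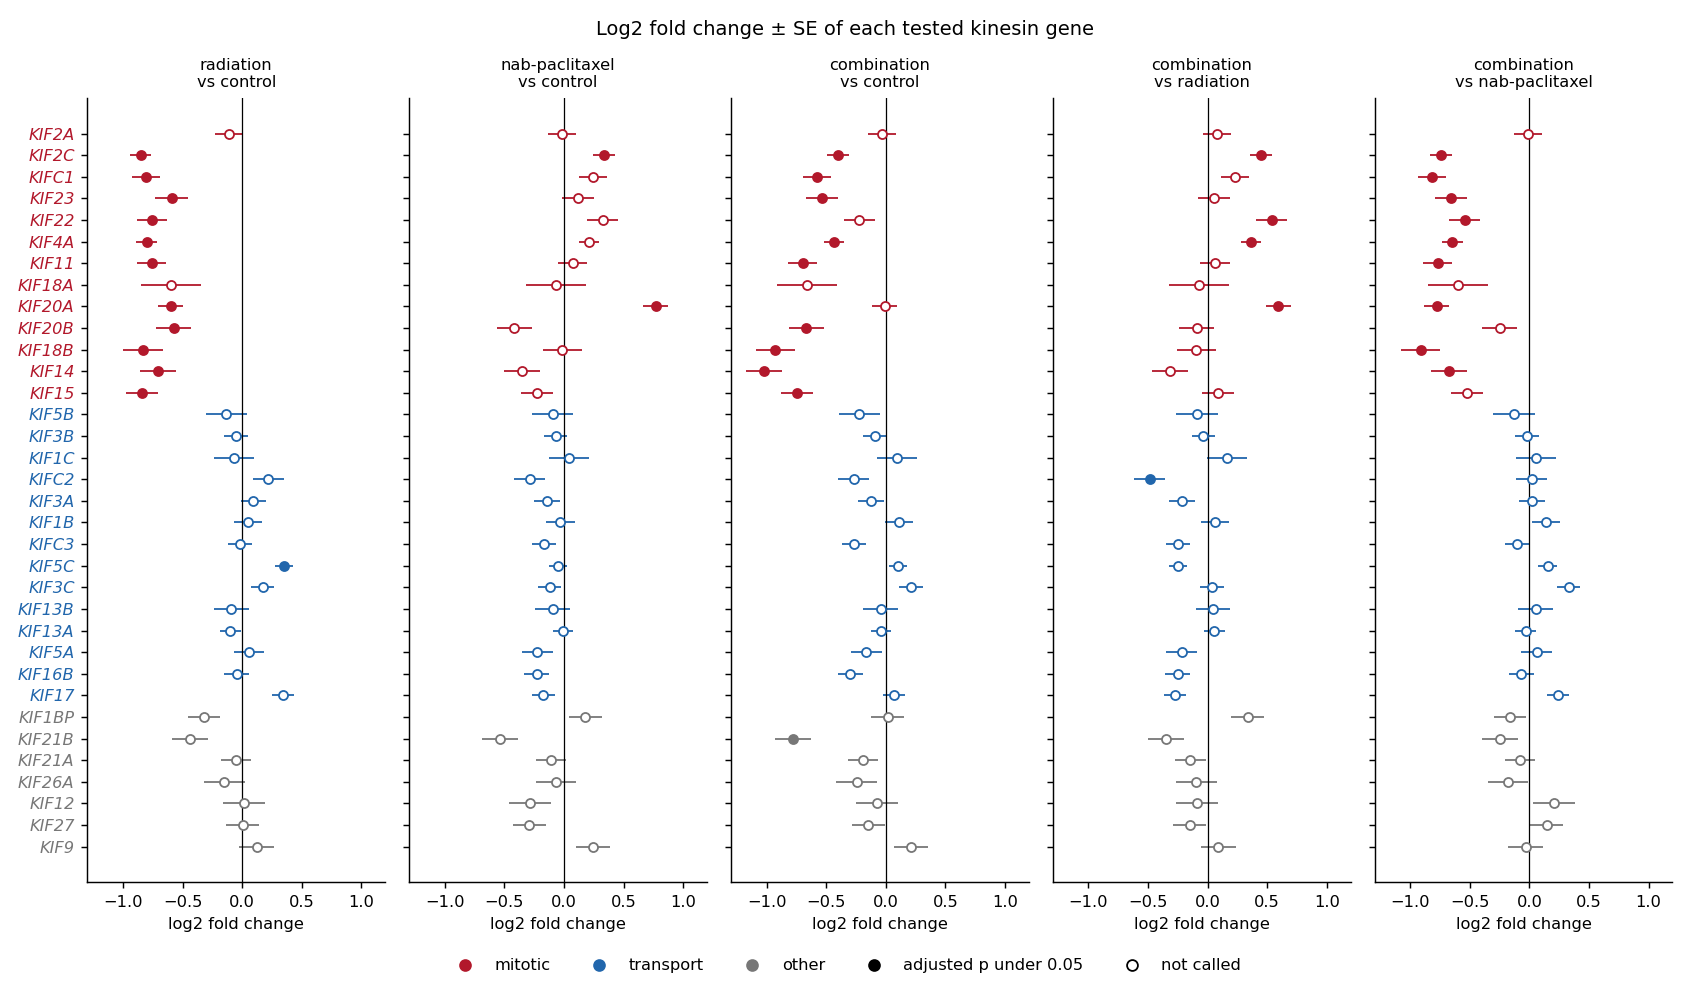
Log2 fold change with its standard error, on the log2(FPKM + 1) scale, for each of the 34 tested genes in 5 comparisons, with filled points for an adjusted p under 0.05. Against control, mitotic members lie left of 0 with radiation (median -0.76) and with both treatments (median -0.57), and transport members lie around 0 (medians 0.01 and -0.07).

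Whether the combination differed from the sum of its single effects was asked with the interaction term. No mitotic and no transport kinesin passed with limma, and nor did any of the 13609 tested genes (0% higher and 0% lower). No member of either class had an unadjusted p under 0.05, and voom called none. Over all genes 443 had an unadjusted p under 0.05 (3.26%), and voom called none of them. The median of the 13 mitotic interaction terms was 0.04. The interaction term was -0.18 ± 0.15 (SE) for KIF20A, 0.11 ± 0.13 for KIF2C and -0.20 ± 0.11 for KIF5C, each with an adjusted p of 0.9997. With 3 libraries a group these standard errors leave wide intervals, so an equal effect is not shown.

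Of the other 7 tested genes, 2 changed in any comparison. KIF21B, a processive motor that slows microtubule growth (ENSG00000116852, chr1:200969390-201023700, minus strand), was at 9.31, 7.59 and 10.3 FPKM in controls, 6.32, 6.66 and 6.25 with radiation, 4.30, 7.27 and 6.55 with nab-paclitaxel and 4.93, 4.49 and 5.07 with both. Every treated library lay below every control. Taken singly, this held for 16% (radiation), 10.6% (nab-paclitaxel) and 17.8% (both) of all tested genes. The test was passed by the combination alone (-0.78 ± 0.15 SE, adjusted p = 0.00416), with -0.43 ± 0.15 (SE, adjusted p = 0.126) for radiation and -0.53 ± 0.15 (SE, adjusted p = 0.05005) for nab-paclitaxel. Without the 3 libraries that stood apart the values for radiation and nab-paclitaxel were -0.55 and -0.45, given without a call. KIF21B passed for radiation without nab-paclitaxel 1 alone (adjusted p = 0.0229). For nab-paclitaxel it passed without control 2 or nab-paclitaxel 2 alone (adjusted p = 0.0378 and 0.0395).

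KIF1BP, the kinesin-binding protein (ENSG00000198954, chr10:68988721-69043544, plus strand), was at 7.04, 8.65 and 7.22 FPKM in controls, 5.52, 6.60 and 5.62 with radiation, 11.3, 7.79 and 7.52 with nab-paclitaxel and 7.39, 8.31 and 7.45 with both. It was higher with nab-paclitaxel than with radiation (0.50 ± 0.14 SE, adjusted p = 0.0307), with nab-paclitaxel replicate 1 the highest library, and missed the threshold without that library (a difference of 0.33), radiation 1 or radiation 3 (adjusted p of 0.0683 to 0.111). Against radiation, the combination passed without nab-paclitaxel 1 alone for KIF1BP (higher by 0.34, adjusted p = 0.0378) and KIF21B (-0.35, adjusted p = 0.0447). KIF27, a relative of the hedgehog pathway kinesin KIF7 (ENSG00000165115, chr9:83836698-83921465, minus strand), was at 1.11, 1.76 and 1.21 FPKM in controls, 1.55, 1.10 and 1.43 with radiation, 0.791, 0.833 and 1.15 with nab-paclitaxel and 1.32, 1.14 and 0.916 with both, and its groups overlapped. KIF21A, KIF26A, KIF12 and KIF9 had means of 3.51, 3.36, 3.35 and 1.07 FPKM and passed in no comparison.

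Of 19 tested light chains and cargo adaptors, none passed with radiation, 1 fell with nab-paclitaxel, and 2 rose and 1 fell with both, each against control (medians 0.08, 0.08 and 0.16). Over all tested genes 2.48% rose and 3.45% fell with radiation, 5.41% rose and 3.41% fell with nab-paclitaxel, and 12.2% rose and 10.6% fell with both, so these counts say nothing particular about the adaptors. TRAK2, a mitochondrial adaptor of kinesin-1, fell with nab-paclitaxel (-0.36 ± 0.09 SE, adjusted p = 0.0278) and with both (-0.37 ± 0.09 SE, adjusted p = 0.0104). MAP7D3, a microtubule protein that helps kinesin-1 onto its track, rose with both (0.42 ± 0.11 SE, adjusted p = 0.0219). MAP7, of the same family, was higher with nab-paclitaxel than with radiation (0.35 ± 0.08 SE, adjusted p = 0.0176).

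Of 26 tested subunits and regulators of dynein and dynactin, the motor complex that walks toward the minus end, 1 rose with radiation, 1 with nab-paclitaxel, and 3 rose and 1 fell with both, against control. Read against the same shares over all genes, these counts are not particular to the list either, and its medians were 0.06 with nab-paclitaxel and 0.10 with both. DYNLL1, a light chain shared with other complexes, rose with nab-paclitaxel from 18.3 ± 1.42 to 28.7 ± 4.75 FPKM (0.61 ± 0.12 SE, adjusted p = 0.0122) and with both to 26.5 ± 2.54 (0.51 ± 0.12 SE, adjusted p = 0.00943). DYNLT1, another light chain, rose with both from 19.4 ± 3.42 to 36.2 ± 3.38 (0.88 ± 0.18 SE, adjusted p = 0.00541). BICD2, a cargo adaptor of dynein, rose with radiation (0.36 ± 0.09 SE, adjusted p = 0.0346) and with both (0.32 ± 0.09 SE, adjusted p = 0.0213).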

How the data were processed

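RNA of 12 TFK1 libraries (4 groups of 3) was sequenced after preparation with a SMARTer kit, per the labels' protocols. The deposited table gives the authors' FPKM per gene and library with each gene's length in bases. The build is hg38, per the submitters' processing notes. Which aligner and counter made the values, and whether strand was used, is not given in the sources used here. FPKM times length came out as whole multiples of 1 fragment for 100% of values (tolerance 0.05), which gave 14840283 to 17992242 fragments a library. That number limits the precision of low genes. The table had 0 columns of other samples.

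Values were tested as log2(FPKM + 1) with limma 3.58.1 in R 4.3.3, with a mean-variance trend, over the 13609 genes whose FPKM averaged 1 or more across the 12 libraries. All 4 groups shared 1 estimate of the spread (8 residual degrees of freedom), tests were two-sided, and p-values were adjusted by Benjamini-Hochberg over all tested genes for each of 7 comparisons, with calls at an adjusted p under 0.05. Fold changes on this scale understate changes of low genes. The steps were tested on simulated data. The earlier results of these data were known when the members, classes and gene lists were chosen.

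Values in every library are given for the 8 tested mitotic, 5 tested transport and 3 other tested members with the smallest F test p-value, and for KIF11 and KIF5B. Other members are given by level and by fold change where called, and listed pathway genes by the 3 smallest F test p-values in each list; members named for a call lost or gained under another setting were chosen after their values were seen. Same-numbered control and combination libraries deviated together from their group means over all tested genes (r = 0.23, 0.54 and 0.17), from the data and not from a label, and a replicate block changed no call of that comparison. Alternatives were a pseudocount of 0.1, no filter, scaling to a common total of FPKM (as in TPM), quantile normalization, voom on recovered fragments, no trend, only the 2 groups compared, a replicate block and leaving out libraries. A planned search of the kinesin proteins was not run.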

Additional observations from a re-analysis of the deposited data

How the results depend on the processing

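Of the 51 calls of a kinesin in a comparison, none reversed under any setting run. All 51 held with voom, a pseudocount of 0.1 or no trend, 48 with quantile normalization, 46 with TPM scaling, 42 with the replicate block, 41 with only the 2 groups compared, 39 with no filter, 50 without the 3 libraries that stood apart (with 25 gained), and 36 to 49 when 1 library was left out. For radiation against control, the 1 transport call became 2 with no trend or voom, 0 with only the 2 groups compared and 4 without the 3 libraries that stood apart. For nab-paclitaxel against control, the 2 mitotic calls became 1 with no filter, quantile normalization or the replicate block and 0 with only the 2 groups compared. The KIF2C call there was also lost with TPM scaling (adjusted p = 0.0614 with limma) and without the 3 libraries (0.0685), and held in 4 of 21 settings. For the combination against control, transport calls went from 0 to 1 with voom and 4 without the 3 libraries. For the combination against radiation, the 4 mitotic calls became 2 with no filter or the replicate block. The 1 transport call there became 0 with no filter, TPM scaling or the replicate block, 2 with quantile normalization, no trend or only the 2 groups compared, and 5 without the 3 libraries. For the combination against nab-paclitaxel, the 9 mitotic calls became 5 with only the 2 groups compared, and transport calls went from 0 to 1 without the 3 libraries. For nab-paclitaxel against radiation, the 3 transport calls became 5 without the 3 libraries. The cause of these shifts was not tested, apart from fewer samples where groups or libraries were left out and more genes tested with no filter. Counts without the 3 libraries that stood apart rest on a spread narrowed by construction, since those libraries were chosen for deviating.

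With 1 library left out, mitotic calls ranged from 7 to 11 for radiation (12 without the 3 libraries together), 1 to 2 for nab-paclitaxel and 8 to 10 for the combination, each against control, from 0 to 4 for the combination against radiation, 6 to 10 for the combination against nab-paclitaxel and 8 to 10 for nab-paclitaxel against radiation. Transport calls ranged from 0 to 2, 0 to 0 and 0 to 1 against control, from 0 to 2 for the combination against radiation, stayed at 0 for the combination against nab-paclitaxel, and ranged from 2 to 3 for nab-paclitaxel against radiation. Interaction calls were 0 in both classes under every setting, and the other settings run, such as a class without KIF2A, left every count within 1.5 times its value. The labels tie same-numbered libraries by a number only. Of the 6 libraries of control and combination, 3 correlated best with their own number, and 0 to 2 of 6 did in the other pairs of groups. The block lowered the counts as given above and changed no other by more than 1.5 times. Quantile normalization moved the share of higher genes among all called genes from 61.3% to 48.3% for nab-paclitaxel against control, from 31.0% to 41.8% for the combination against nab-paclitaxel and from 65.4% to 51.0% for nab-paclitaxel against radiation, and no scaling moved the median of all genes by more than 0.1. No filter called 5 genes in the interaction, none of them a tested kinesin. It also called KIF24 for the combination against control (-0.57, adjusted p = 0.0296). Where FPKM rests on few fragments, as for KIF4B (0 to 9) and KIF1A (3 to 24), differences were not detectable at this depth.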
